A study of Mus musculus with 24 samples.

Results

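Fatty acid uptake and triglyceride synthesis were followed through 10 genes in the inguinal white fat of mice, which lies under the skin. The genes were Lpl, Angptl4, Cd36, Fabp4, Pck1, Gpam, Agpat2, Lpin1, Dgat1 and Dgat2, chosen by symbol from their place in the pathway, and all 10 were found among the 16233 genes measured. RNA sequencing covered 24 libraries from male C57BL6 mice aged 10 to 11 weeks, in 4 groups of 6. ZT15 RUN mice had a bout of exercise of 1 h and ZT15 SED mice a sham hour on an artificial treadmill, both early in the active phase. ZT3 RUN and ZT3 SED mice had the same treatments early in the rest phase. ZT counts hours from lights on, and the hour between bout and sampling is not stated for these libraries. Nothing in the labels ties a library to its own animal, so the p-values below reflect variation among the sequenced libraries, part of which may be technical.

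Fat cells fill their droplets by taking fatty acids from blood lipoproteins and joining them to glycerol phosphate. Lipoprotein lipase, from Lpl, frees fatty acids at the capillary wall, and its inhibitor is Angptl4. Cd36 carries fatty acids over the membrane and Fabp4 binds them inside. Pck1 feeds the synthesis of glycerol phosphate from pyruvate carbons. Gpam, Agpat2, Lpin1 and the pair Dgat1 and Dgat2 then act in turn until the triglyceride is complete.

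Levels are in TMM-scaled CPM, reads per M (mega) reads after a library size correction based on the trimmed mean of M-values. They are not divided by gene length, so levels of different genes were not compared. Library depth was 18.5 to 34.7 M reads, and the 10 genes had 4521 to 358730 reads in any library, so counting error was small beside the spread between libraries. The adipocyte markers Adipoq and Plin1 belonged to a list of 8 whose summed level was 14640 to 22680 in ZT15 RUN, 9583 to 19930 in ZT15 SED, 7512 to 21840 in ZT3 RUN and 14850 to 20140 in ZT3 SED. Some libraries stood apart. The B cell gene Cd79a reached 14.1 in ZT15_SED_3, 54.6 in ZT15_SED_5 and 99.2 in ZT3_RUN_4 and stayed at or below 1.325 in the other 21 libraries. Adipoq was at 1101 in ZT3_RUN_4 and 1223 in ZT15_SED_5 against at least 1928 elsewhere. Ucp1, the uncoupling protein of thermogenic fat, was at 532 in ZT15_RUN_1, 526 in ZT15_RUN_6 and 208 in ZT15_SED_1, against at most 73.8 elsewhere. Tsc22d3, a glucocorticoid-induced gene named after its values were seen, put a library of each ZT3 group with the other group. ZT3_RUN_1 had 127 while the rest of ZT3 RUN had 299.8 or more, and ZT3_SED_1 had 390.4 while the rest of ZT3 SED had 189 or less. All libraries were kept under their labels.

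Exercise at ZT15 left 0 of the 10 genes past an adjusted p of 0.05 in the limma test over all genes, where 0.641% of all genes passed. Unadjusted p-values were under 0.05 for 3 of the 10, Lpin1, Dgat1 and Pck1, and for 12.7% of all genes. Counts of 0 and 2 came from edgeR and DESeq2, the pair of DESeq2 being Lpin1 and Dgat1. Over all 16233 genes edgeR called 121 and DESeq2 561, against 104 by limma. The ZT15 RUN and ZT15 SED libraries did not overlap in 1 of the 10 genes, Lpin1, and in 1.75% of all genes. The median log2 difference of the 10 was 0.22 with 7 above 0, against a median of 0.00329 with 50.7% above 0 over all genes. Without ZT15_SED_5 the median of the 10 was 0.117 with 8 above 0, and without the libraries high in Cd79a it was 0.146 with 8 above 0. Quantile normalization brought it to 0.06 with 6 above 0, and lymphocyte and muscle marker scores as covariates brought it to 0.03 with 5 above 0. Median centring gave 0.278 with 10 above 0, where the median over all genes was 0.0584. Leaving out the libraries high in Ucp1 gave 0.276 with 8 above 0. Lists of cell type markers stood as follows: at ZT15 0 of 10 lymphocyte markers were above 0 (median -1.58), 10 of 10 skeletal muscle markers (1.07), 8 of 8 of thermogenic fat (0.29), 8 of 8 of endothelium (0.13), 7 of 8 of preadipocytes and fibroblasts (0.25) and 5 of 8 of macrophages (0.02), with 0 markers past the threshold. Summed muscle markers ranged from 172 to 46780 in ZT15 RUN and from 25.1 to 42360 in ZT15 SED, so the groups overlapped throughout. The part of these cells in the results was not tested.

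**Figure D1:**
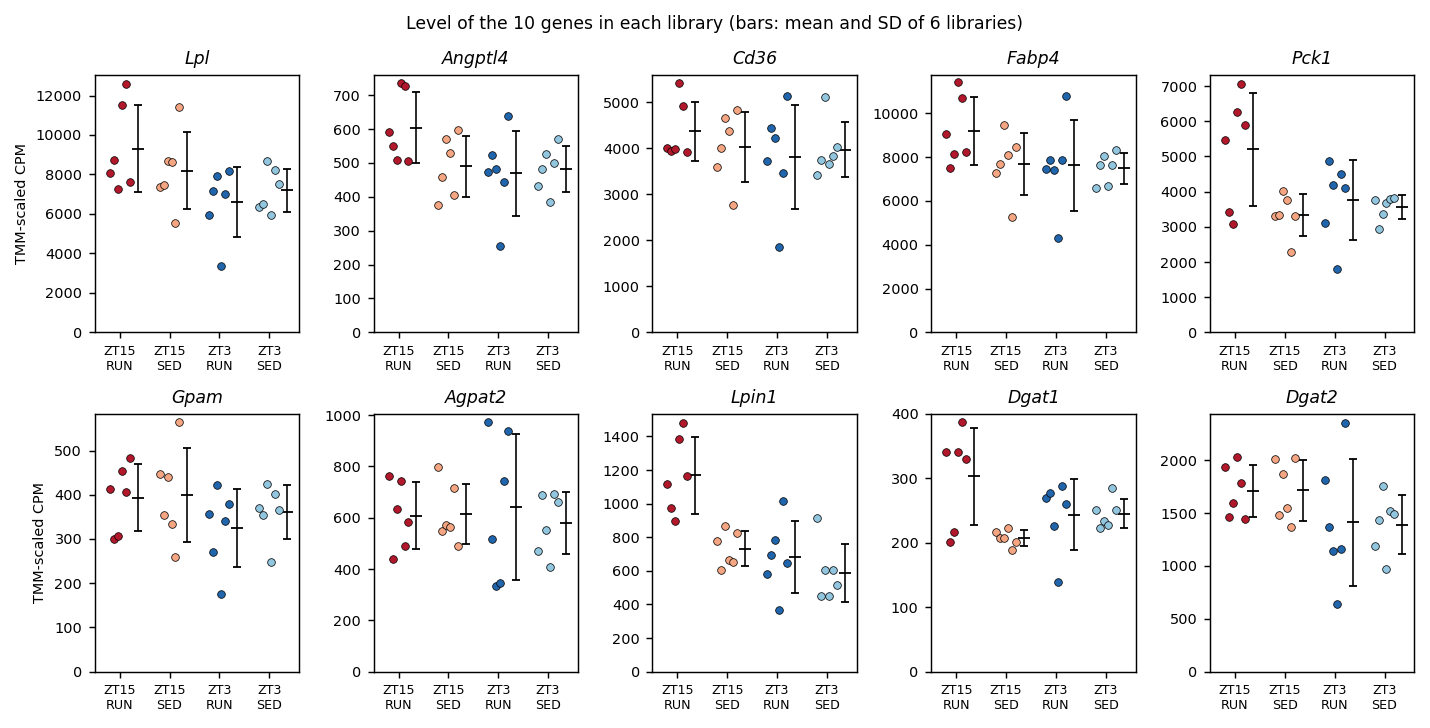
Level of each of the 10 genes in every library, in TMM-scaled CPM on axes that start at 0. Points are libraries of ZT15 RUN, ZT15 SED, ZT3 RUN and ZT3 SED from left to right, and bars give the mean and SD of 6 libraries. Lpin1 has its ZT15 RUN points at 894.2 to 1479, above all ZT15 SED points, and ZT3 RUN holds the lowest point of every panel.

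Lpin1 makes lipin 1, which turns phosphatidate into diacylglycerol, the step before the last in triglyceride synthesis, and in the nucleus it also acts as a transcriptional coactivator. It showed the largest exercise difference among the 10 genes at ZT15. The lowest, median and highest libraries were at 894.2, 1141 and 1479 in ZT15 RUN and at 604.2, 719.6 and 867.7 in ZT15 SED. The lowest exercised library thus lay above the highest sedentary one. The means were 1168 ± 227 in ZT15 RUN and 732 ± 106 in ZT15 SED (SD, n = 6 each, as for all levels below), a log2 difference of 0.66 ± 0.20 (SE, as for all differences below) with a 95% interval of 0.25 to 1.08, or 1.58-fold. By limma the unadjusted p was 0.00295 and the adjusted p 0.122, so the difference missed the threshold. DESeq2 on the recovered reads put it past the threshold (0.68, adjusted p = 0.0284). So did limma without ZT3_RUN_4, a library outside this comparison that enters its estimate of spread (adjusted p = 0.0465). These fits called 561 and 293 of all genes, against 104 in the main limma fit. Fits that left out other libraries or changed other settings gave 0.52 to 0.74 with an adjusted p from 0.0762 to 0.324.

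Among members with an unadjusted p under 0.05 for exercise at ZT15, Pck1 and Lpin1 had an entry in the RefSeq promoter table (GRCm38.p6). Their upstream bases are therefore shown. Both stretches are the 250 bases before the transcription start, read 5′ to 3′ on the gene's strand, with motif matches in capitals. The first lies at chr2:173152823-173153072 on the plus strand and the second at chr12:16610967-16611216 on the minus strand.
Pck1: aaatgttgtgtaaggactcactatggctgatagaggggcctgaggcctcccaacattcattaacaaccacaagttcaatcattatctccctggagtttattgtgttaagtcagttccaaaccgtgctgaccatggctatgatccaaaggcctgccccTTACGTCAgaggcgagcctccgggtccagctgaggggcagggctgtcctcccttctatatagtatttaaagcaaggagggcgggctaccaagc
Lpin1: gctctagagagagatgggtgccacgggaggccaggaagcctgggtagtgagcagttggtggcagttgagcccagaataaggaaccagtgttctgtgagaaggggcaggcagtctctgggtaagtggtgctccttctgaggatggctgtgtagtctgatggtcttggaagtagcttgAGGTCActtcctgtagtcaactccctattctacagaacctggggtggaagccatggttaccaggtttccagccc
The capitals upstream of Pck1 match TGACGTNA, a form of the cyclic AMP response element, on the minus strand, starting 93 bases before the start site. Those upstream of Lpin1 match AGGTCA, the nuclear receptor half-site, on the plus strand, starting 74 bases before the start site. Both strands were searched for these motifs, for the E-box CACGTG and for ACANNNTGT, a form of the glucocorticoid receptor palindrome, and no matches overlapped. Among 32851 promoter windows of the same length, 2.52% held TGACGTNA, 14.0% AGGTCA, 6.02% CACGTG and 5.84% ACANNNTGT. The table held 5 of the 10 genes, and AGGTCA also matched upstream of Cd36 and in 1 of the Gpam windows. Motifs were chosen with the promoters in view, and a match describes letters, not binding.

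Pck1, the cytosolic phosphoenolpyruvate carboxykinase that in fat feeds glycerol phosphate synthesis, had the next largest difference. Its lowest, median and highest libraries were at 3085, 5681 and 7064 in ZT15 RUN and at 2282, 3321 and 4019 in ZT15 SED. ZT15_RUN_2 (3430) and ZT15_RUN_3 (3085) lay within the sedentary range, and the other 4 exercised libraries lay above it, from 5470 up. The log2 difference was 0.60 ± 0.24 (95% interval 0.10 to 1.09, 1.51-fold, adjusted p = 0.292 by limma).

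Dgat1, which adds the last fatty acid to diacylglycerol, showed the same split of the exercised libraries. It was at 201.1 in ZT15_RUN_2 and 217 in ZT15_RUN_3, and at 330.6 to 387.7 in the other 4 exercised libraries. ZT15 SED ran from 188.7 through a median of 207.3 to 222.2, so 4 of 6 exercised libraries lay above every sedentary one. The log2 difference was 0.51 ± 0.16 (95% interval 0.17 to 0.84, 1.42-fold, adjusted p = 0.145 by limma). DESeq2 gave 0.55 with an adjusted p of 0.0236, and limma without ZT3_RUN_4 an adjusted p of 0.0424. Dgat2, the other enzyme of this step, had 1442, 1691 and 2034 in ZT15 RUN and 1368, 1707 and 2024 in ZT15 SED. The ranges nearly coincided, with a log2 difference of -0.0017 ± 0.22 (95% interval -0.46 to 0.46). Whether the Dgat1 and Dgat2 differences differ from each other was not tested.

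The groups overlapped at ZT15 in each of the 4 uptake genes. Angptl4 had 505.7, 571.5 and 736.7 in ZT15 RUN and 375.6, 494 and 596.8 in ZT15 SED, and 6 of 6 exercised libraries were above the sedentary mean (0.30 ± 0.17, adjusted p = 0.474). Lpl had 7262, 8409 and 12600 in ZT15 RUN and 5553, 8041 and 11410 in ZT15 SED (0.19 ± 0.25, adjusted p = 0.811), and without ZT15_SED_5 the Lpl difference was 0.083. ZT15_RUN_4 and ZT15_RUN_5 held the highest Lpl levels of all 24 libraries. Cd36 had 3925, 3987 and 5420 in ZT15 RUN and 2768, 4186 and 4819 in ZT15 SED (0.13 ± 0.21, adjusted p = 0.858), and without ZT15_SED_5 the Cd36 difference was 0.022. Fabp4 had 7515, 8647 and 11410 in ZT15 RUN and 5248, 7883 and 9480 in ZT15 SED (0.26 ± 0.23, adjusted p = 0.684), and without ZT15_SED_5 the Fabp4 difference was 0.15. Without all libraries high in Cd79a the differences were 0.085 for Lpl, 0.054 for Cd36, 0.21 for Fabp4 and 0.30 for Angptl4. None of these 4 differences reached an adjusted p of 0.05 in any limma, edgeR or DESeq2 fit that was run.

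Gpam and Agpat2, of the early steps of esterification, had small differences with wide intervals at ZT15. Gpat4, which shares the first step with Gpam, differed by 0.45 ± 0.13 (adjusted p = 0.115) and is described below. Gpam, the mitochondrial acyltransferase that starts the chain, had 300.5, 409.1 and 483.4 in ZT15 RUN and 260.2, 397.7 and 563.6 in ZT15 SED (-0.0020 ± 0.20, 95% interval -0.41 to 0.41). Agpat2, which adds the next fatty acid and whose loss causes lipodystrophy in humans, had 439.6, 608.1 and 763 in ZT15 RUN and 491.5, 566.9 and 799.4 in ZT15 SED (-0.023 ± 0.24, 95% interval -0.52 to 0.47). Both intervals overlap that of Lpin1, and whether the differences of these genes differ was not tested.

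**Figure D2:**
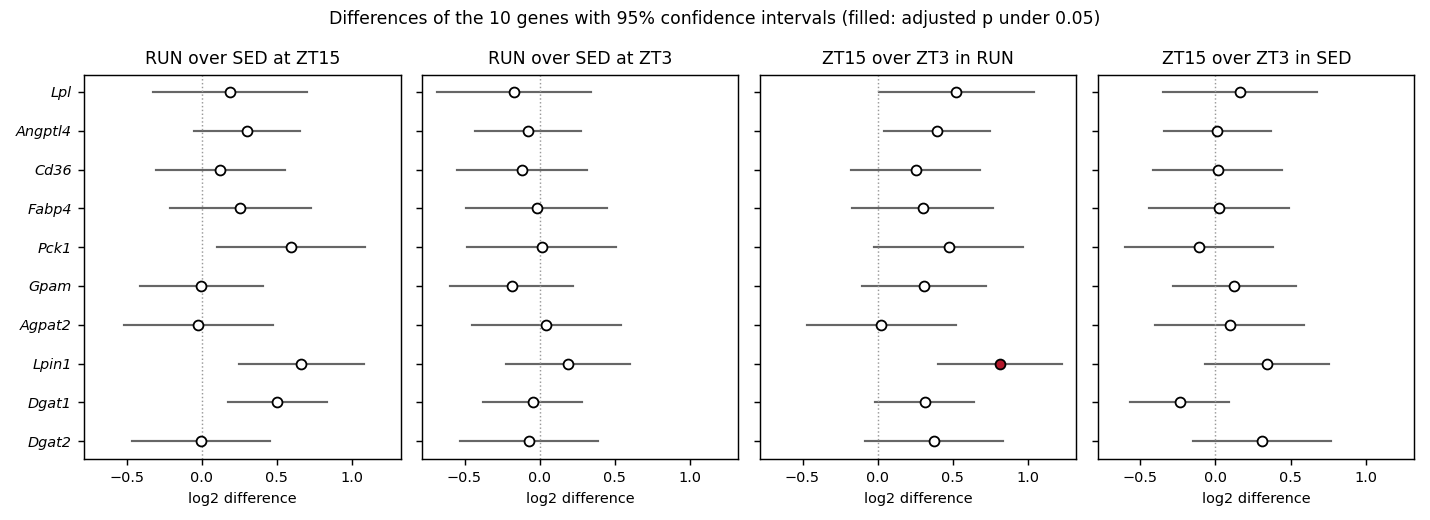
Log2 differences of the 10 genes in 4 comparisons, with 95% confidence intervals from the limma fit over 24 libraries. RUN over SED stands left at ZT15 and then at ZT3, followed by ZT15 over ZT3 in RUN and in SED, and a filled point marks an adjusted p under 0.05. Lpin1 in the ZT15 over ZT3 comparison of exercised mice, at 0.82, is the filled point.

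At ZT3 the same comparison gave 0 of 10 genes past the threshold, 0 at an unadjusted p under 0.05 and 0 by edgeR and DESeq2. Over all genes 0% passed by limma, and 2.27% had an unadjusted p under 0.05. The groups overlapped in all 10 genes, while 0.0739% of all genes did not overlap. Lpin1 had 369.1, 670.8 and 1016 in ZT3 RUN and 450.3, 559.6 and 912.7 in ZT3 SED (0.19 ± 0.20, 95% interval -0.22 to 0.60, adjusted p = 0.989). Its highest sedentary value came from ZT3_SED_1, the next being 606.1, and ZT3_RUN_1 was at 578.9. Without both libraries, a choice made after the data were seen, the difference was 0.36 (adjusted p = 0.923). Pck1 had 1792, 4144 and 4867 in ZT3 RUN and 2939, 3723 and 3824 in ZT3 SED (0.014 ± 0.24), and Dgat1 had 139.4, 264.7 and 287.4 in ZT3 RUN and 223.1, 242.1 and 285.7 in ZT3 SED (-0.046 ± 0.16). The median of the 10 was -0.06 with 3 above 0, and 0.12 with 9 above 0 without the libraries high in Cd79a, so no direction is given for the 10 genes at ZT3. Markers above 0 in this comparison were 0 of 8 for adipocytes (median -0.14), 10 of 10 for lymphocytes (0.91), 0 of 10 for skeletal muscle (-0.39), 2 of 8 for thermogenic fat (-0.17), 2 of 8 for endothelium (-0.08), 3 of 8 for macrophages (-0.06) and 3 of 8 for preadipocytes and fibroblasts (-0.06), and their part was not tested.

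The exercise by time interaction, the ZT15 difference minus the ZT3 difference, tests whether the exercise difference itself differed between the times. It passed the threshold for 0 of the 10 genes by limma, edgeR and DESeq2, and 1 had an unadjusted p under 0.05. Over all genes limma and edgeR called 0 and DESeq2 called 239, and 7.84% had an unadjusted p under 0.05 by limma. The largest interactions were 0.58 ± 0.34 for Pck1 (adjusted p = 0.585), 0.55 ± 0.23 for Dgat1 (unadjusted p = 0.023, adjusted p = 0.583) and 0.47 ± 0.28 for Lpin1 (adjusted p = 0.585). Without the libraries high in Cd79a these were 0.33, 0.37 and 0.34 on the log2 scale. A response at ZT15 that differs from that at ZT3 was thus not shown for any of the 10.

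Time of day was compared within each treatment. Exercised mice had 1 of the 10 genes past the threshold, Lpin1, with 4.19% of all genes past it. An unadjusted p under 0.05 was found for 3 of the 10, Lpin1, Lpl and Angptl4, and for 20.8% of all genes. By edgeR and DESeq2 1 of the 10 also passed. Over all 16233 genes edgeR called 744 and DESeq2 1590, against 680 by limma. Lpin1 rose to 1168 ± 227 in ZT15 RUN, against 682 ± 216 in ZT3 RUN (SD, n = 6 each). The log2 difference was 0.82 ± 0.20 (95% interval 0.41 to 1.23, 1.76-fold, adjusted p = 0.0217). All 6 ZT15 RUN libraries were above the ZT3 RUN mean, but the ranges overlapped, since ZT3_RUN_5 was at 1016 and the lowest ZT15 RUN library at 894.2. Groups did not overlap in 0 of the 10 genes and in 2.27% of all genes. The call was lost without ZT15_RUN_4 (0.77, adjusted p = 0.0587), without ZT15_RUN_5 (0.75, adjusted p = 0.0644) and without the libraries high in Ucp1 (0.83, adjusted p = 0.0993). It held without the libraries high in Cd79a (0.66, adjusted p = 0.0448), without ZT3_SED_1 and ZT3_RUN_1 (0.78, adjusted p = 0.0354) and with the adipocyte marker score as a covariate (0.68, adjusted p = 0.0145).

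All 10 genes had a log2 difference above 0 in exercised mice, with a median of 0.35, against a median of -0.00578 and 48.9% above 0 over all genes. Lpl differed by 0.52 ± 0.25 (7262, 8409 and 12600 in ZT15 RUN and 3346, 7075 and 8188 in ZT3 RUN, adjusted p = 0.232). Angptl4 differed by 0.40 ± 0.17 (505.7, 571.5 and 736.7 in ZT15 RUN and 254.4, 478 and 638.3 in ZT3 RUN, adjusted p = 0.19). The bottom of each ZT3 RUN range was ZT3_RUN_4, and without that library the differences were 0.34 for Lpl and 0.23 for Angptl4. Without the libraries high in Cd79a the median of the 10 was 0.17 with 9 above 0. Quantile normalization gave a median of 0.15 with 7 above 0, and the adipocyte score as a covariate 0.19 with 9 above 0. Median centring gave 0.399 with 10 above 0, where the median over all genes was 0.048. Leaving out the libraries high in Ucp1 gave 0.358 with 9 above 0. In the same comparison 8 of 8 markers of thermogenic fat were above 0 (median 0.80, summed level 112 to 1515 in ZT15 RUN and 65.8 to 246 in ZT3 RUN). So were 7 of 8 adipocyte markers (0.20), 6 of 8 of endothelium (0.10), 1 of 8 of preadipocytes and fibroblasts (-0.15), 0 of 8 of macrophages (-0.525, summed level 671.2 to 2192 in ZT15 RUN and 1364 to 2562 in ZT3 RUN), 0 of 10 of lymphocytes (-1.02) and 0 of 10 of skeletal muscle (-0.46). Their part was not tested. This comparison shares its ZT15 RUN libraries with the exercise comparison at ZT15, so the 2 are not independent.

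In sedentary mice 0 of the 10 genes passed the limma threshold, 0 had an unadjusted p under 0.05 and edgeR and DESeq2 each gave 0. Of all genes, 1.18% passed the limma threshold and 12.1% had an unadjusted p under 0.05. Over all genes edgeR called 192 and DESeq2 548, against 191 by limma. Lpin1 had 604.2, 719.6 and 867.7 in ZT15 SED and 450.3, 559.6 and 912.7 in ZT3 SED (0.34 ± 0.20, adjusted p = 0.532). Above 606.1 the ZT3 range held only ZT3_SED_1. Without that library and ZT3_RUN_1, a choice made after the data were seen, the difference was 0.48 (adjusted p = 0.342). Dgat1 ran the other way. Its 6 ZT15 SED libraries, at 188.7 to 222.2, all lay below its 6 ZT3 SED libraries, at 223.1 to 285.7, by a margin of less than 1 between the nearest libraries. The log2 difference was -0.24 ± 0.16 (95% interval -0.57 to 0.09, adjusted p = 0.603). This SE and interval use 1 estimate of spread over the 4 groups. Dgat1 varied more in the RUN groups, outside this comparison (coefficient of variation 25.0% and 22.7%), than in ZT15 SED (5.67%) and ZT3 SED (9.35%). Dgat1 was 1 of 10 genes without overlap here, where 2.51% of all genes had none. Between these groups 2 of 8 adipocyte markers were above 0 (median -0.10), 10 of 10 of lymphocytes (1.5), 0 of 10 of skeletal muscle (-1.86), 6 of 8 of thermogenic fat (0.44), 4 of 8 of endothelium (-0.01), 0 of 8 of macrophages (-0.53) and 0 of 8 of preadipocytes and fibroblasts (-0.50). The collagen gene Col1a1 of the last list fell by 0.93 on the log2 scale (adjusted p = 0.0485) and was the 1 marker past the threshold. The part of these cells was not tested.

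The order of the group means can be given for the genes with the widest spread between groups. For Lpin1 it was ZT15 RUN (1168 ± 227), ZT15 SED (732 ± 106), ZT3 RUN (682 ± 216) and ZT3 SED (590 ± 173), and the lower 3 groups lay within 1 SD of their neighbours. For Dgat1 it was ZT15 RUN (303 ± 75.7), ZT3 SED (245 ± 23.0), ZT3 RUN (243 ± 55.1) and ZT15 SED (207 ± 11.8). For Pck1 it was ZT15 RUN (5201 ± 1598), ZT3 RUN (3761 ± 1130), ZT3 SED (3560 ± 349) and ZT15 SED (3335 ± 594), with the lower 3 again within 1 SD of each other. The coefficient of variation of Dgat1 was 25.0% in ZT15 RUN and 5.67% in ZT15 SED, and 22.7% in ZT3 RUN and 9.35% in ZT3 SED.

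Single libraries shaped much of the remaining spread. ZT3_RUN_4 held the lowest of all 24 values in 9 of the 10 genes and was among the lowest 3 in all 10. Its levels were 42.9% (Pck1) to 54.4% (Fabp4) of the median of the other ZT3 RUN libraries. ZT15_SED_5 was among the lowest 3 in 6 genes and stood at 59.1% (Gpam) to 91.0% (Dgat1) of the median of the other ZT15 SED libraries in all genes but Agpat2, which was at 127%. ZT15_SED_3, the third library high in Cd79a, was at 100% to 131% of the median of the others. At the other end ZT15_RUN_4 was among the highest 3 in 9 genes and ZT15_RUN_5 in 6. The 10 lymphocyte markers summed to 1320 in ZT3_RUN_4 and 852.7 in ZT15_SED_5, against medians of 10.9 in ZT3 RUN and 12.8 in ZT15 SED, and their part in the low levels was not tested. In whole tissue, a smaller share of fat cells among all cells and less RNA per fat cell cannot be told apart.

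**Figure D3:**
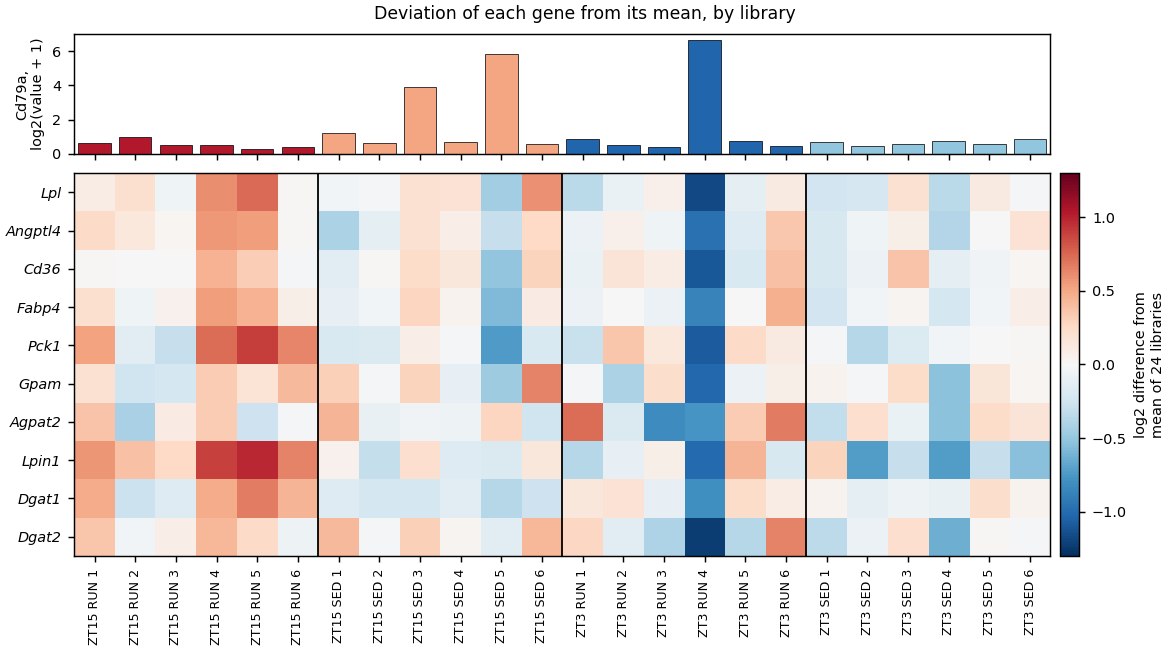
Log2 difference of each gene from its mean over 24 libraries (colour, lower panel) and the B cell gene Cd79a as log2(value + 1) (bars, upper panel), with libraries of ZT15 RUN, ZT15 SED, ZT3 RUN and ZT3 SED from left to right. ZT3_RUN_4 is the darkest blue column and has the tallest Cd79a bar (99.2 on the linear scale), while ZT15_RUN_4 and ZT15_RUN_5 are the reddest columns.

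Deviations from the group mean were correlated over the 24 libraries for the 45 pairs among the 10 genes, with p-values from 100000 permutations within groups, adjusted over the 45. Pearson's r ran from 0.117 to 0.923 with a median of 0.673, and 33 pairs passed an adjusted p of 0.05. The share of such pairs among all genes was not computed, so the count is not given as a trait of these 10. Uptake genes went together: Cd36 and Fabp4 had r = 0.923 (Spearman's rho 0.873, permutation p = 1e-05, the smallest these permutations can give, adjusted 9e-05), and r was 0.846 without the 2 libraries farthest from the Cd36 median. Fabp4 and Angptl4 had r = 0.909 (rho 0.91, adjusted permutation p = 9e-05), and 0.878 without the 2 farthest. Dgat1 and Pck1, which shared the split of the ZT15 RUN libraries, had r = 0.885 (rho 0.774, adjusted permutation p = 0.00126), and 0.792 without the 2 farthest. Lpin1 was closest to Pck1 (r = 0.727, rho 0.698, adjusted permutation p = 0.000731, 0.682 without the 2 farthest). Agpat2 stood apart, with a median r of 0.312 to the other 9 and 1 pair past the threshold. Without the 2 farthest libraries 22 of the 45 pairs had r above 0.5, and the range was -0.248 to 0.878.

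The adipocyte score, the mean z score of 8 markers none of which is among the 10 genes, followed the same libraries. Its r with the 10 genes was 0.319 (Agpat2) to 0.943 (Fabp4), with 9 of 10 past an adjusted permutation p of 0.05. The share of all genes that follow the score in this way was not computed. Lpin1 had the lowest r of those 9, 0.637 (rho 0.648, adjusted permutation p = 0.00443, 0.631 without the 2 farthest). With this score as a covariate, an alternative added after the data were seen, the ZT15 exercise differences were 0.57 for Lpin1 (adjusted p = 0.0787), 0.42 for Dgat1 (adjusted p = 0.0732), 0.46 for Pck1 (adjusted p = 0.126) and 0.05 for Lpl (adjusted p = 0.913). The median of the 10 then was 0.10 with 6 above 0, against 0.22 with 7 above 0 without the score.

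The genes most like each member were sought among genes above the median level, by Pearson's r of log2 levels over 24 libraries, as a description. Lpin1 was most like Map3k6 (r = 0.935), Ell2 (0.916) and Cyp2d22 (0.915). Dgat1 was most like Pck1 (0.904), Dusp22 (0.901) and Marchf5 (0.877), and Pck1 most like Fitm2 (0.925), Ubap1 (0.922) and Kyat3 (0.917). Angptl4 and Fabp4 named each other (0.923), and Angptl4 was also like Cavin2 (0.919) and Stk39 (0.916), Fabp4 like Pxmp4 (0.935) and Vamp3 (0.926). For Lpl the genes were Ywhab (0.967), Pde1a (0.958) and Rtn3 (0.952), and for Cd36 Syap1 (0.972), Nckap1 (0.964) and Vamp3 (0.958). Gpam was most like Zfand3 (0.906), Man2a2 (0.895) and Vegfb (0.894), Agpat2 like Pcyt2 (0.889), Mrpl12 (0.869) and Pdhb (0.837), and Dgat2 like Pcyox1 (0.956), Alad (0.943) and Chchd6 (0.92). The libraries differed in depth and cell makeup, and all genes were measured in the same libraries, the low ZT3_RUN_4 among them.

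Other genes of the pathway were read as 6 lists. Exercise at ZT15 and at ZT3 moved 0 of their measured members past the limma threshold. At ZT15 the medians were 0.09 over 14 uptake and activation genes, 0.08 over 9 regulators of lipoprotein lipase, 0.10 over 15 esterification genes, 0.02 over 7 genes of glycerol phosphate supply, 0.25 over 7 droplet genes and 0.15 over 14 upstream regulators, against 0.00329 over all genes. In the same order, 10 of 14, 7 of 9, 12 of 15, 4 of 7, 7 of 7 and 11 of 14 genes were above 0, against 50.7% of all genes. Gpihbp1, which anchors lipoprotein lipase to the capillary, was at 101 ± 18.1 in ZT15 RUN and 78.9 ± 10.6 in ZT15 SED (0.35 ± 0.16, adjusted p = 0.375). Acsl1, which activates fatty acids with coenzyme A, was at 3006 ± 620 in ZT15 RUN and 2310 ± 313 in ZT15 SED (0.36 ± 0.19, adjusted p = 0.422).

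Gpat4, an acyltransferase of the same first step as Gpam, had the smallest p of the esterification list. It was at 266 ± 46.1 in ZT15 RUN and 194 ± 31.8 in ZT15 SED (0.45 ± 0.13, adjusted p = 0.115), where Gpam was at 394 ± 75.1 in ZT15 RUN and 399.8 ± 106 in ZT15 SED. Plpp1, a lipid phosphatase, was at 21.0 ± 5.39 in ZT15 RUN and 15.8 ± 0.98 in ZT15 SED (0.35 ± 0.16, adjusted p = 0.372). Pck2, the mitochondrial counterpart of Pck1, differed by -0.15 ± 0.13 (adjusted p = 0.692), and the glycerol channel Aqp7 by 0.17 ± 0.16 (adjusted p = 0.7). Among droplet genes, of which 7 of 7 were above 0, Fitm2 differed by 0.32 ± 0.16 (adjusted p = 0.4) and the droplet coat gene Plin2 by 0.39 ± 0.20 (adjusted p = 0.435). The droplet list shares Plin1 and Cidec with the adipocyte markers, of which 7 of 8 were above 0 with a median of 0.15.

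Time of day moved 2 genes of these lists past the limma threshold, 1 of 14 upstream regulators and 1 of 9 regulators of lipoprotein lipase. Of all genes, 4.19% passed it in exercised mice and 1.18% in sedentary mice, so the lists are not read as a group. Foxo1, a transcription factor that insulin signalling keeps out of the nucleus, rose to 170 ± 34.6 in ZT15 RUN, against 107 ± 21.9 in ZT3 RUN (0.67 ± 0.17, adjusted p = 0.0305). In sedentary mice it was at 129 ± 23.3 at ZT15 and 94.9 ± 24.6 at ZT3 (0.46 ± 0.17, adjusted p = 0.241), and whether the treatments differ is the interaction, which passed for 0 of the listed genes. Creb3l3, a membrane-bound transcription factor studied mainly in liver and intestine, was low throughout. It fell to 0.916 ± 0.337 in ZT15 RUN, against 2.21 ± 0.589 in ZT3 RUN (-0.75 ± 0.13, adjusted p = 0.00211), and to 0.747 ± 0.213 in ZT15 SED, against 2.25 ± 0.421 in ZT3 SED (-0.89 ± 0.13, adjusted p = 0.000533). At such levels the added pseudocount of 1 makes the log2 difference smaller than that of the levels.

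**Figure D4:**
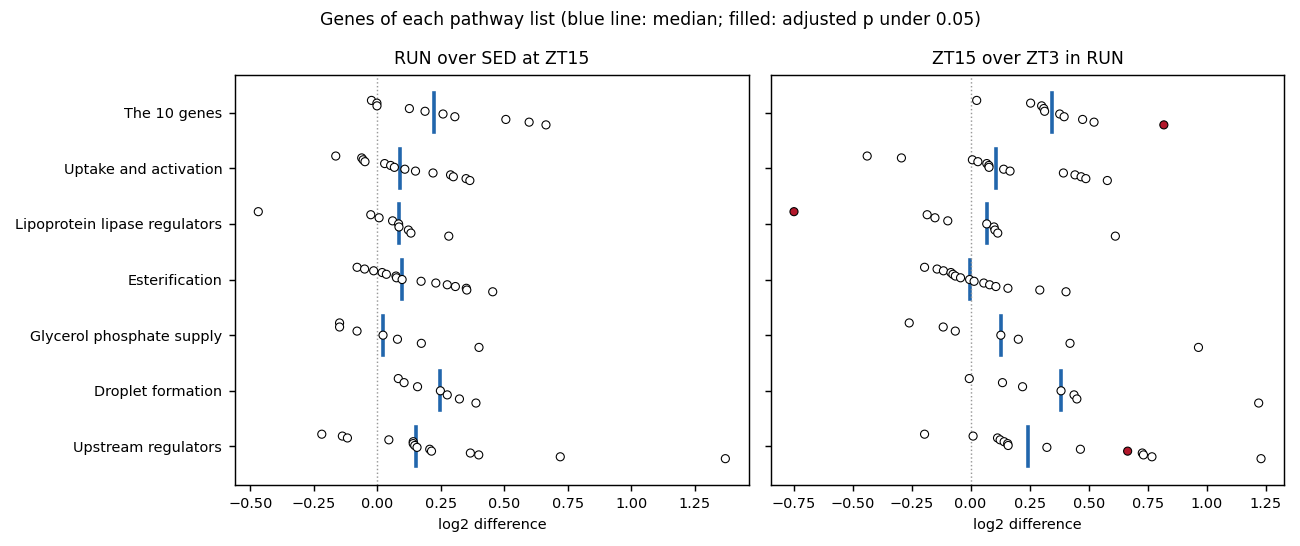
Log2 differences of the 10 genes and of 6 lists of other pathway genes, for RUN over SED at ZT15 (left) and ZT15 over ZT3 in RUN (right). Each point is a gene, blue lines are medians and filled points have an adjusted p under 0.05. No point is filled on the left, and Lpin1 (0.82), Foxo1 (0.67) and Creb3l3 (-0.75) are filled on the right.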

How the data were processed

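Ribosomal RNA was removed before stranded libraries were prepared, per the labels' protocols. The submitters' processing notes list STAR, featureCounts, Subread 1.6.2 and limma 3.48.3 but not what each did. For the genome build, annotation and strand setting of the counting, the entry is: not given in the sources used here. Overlapping and antisense genes could therefore share reads. The deposited signal is normalized: 100% of its values came out as whole reads within 0.01 of a read, and its factors equalled recomputed TMM factors to within 8.882e-16. The test planned for normalized values was therefore used. Depth was 18.5 to 34.7 M reads. Of 60 within-group library pairs, the most alike had a chi-square of 22.8 per degree of freedom, far above sampling noise.

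Values were tested as log2(value + 1) with limma 3.58.1 in R 4.3.3 (eBayes with trend, 24 libraries in 1 group-means model, Benjamini-Hochberg over 16233 genes, threshold 0.05), after a check on simulated data. Adjusted p-values are from limma unless another tool is named. Alternatives were quantile normalization, median centring, a filter on the lowest 25% of genes, a pseudocount of 0.1, blocks of title numbers, marker scores as covariates, edgeR 4.0.16 and DESeq2 1.42.0 on recovered reads, and leaving out libraries with Cd79a above 5 or Ucp1 above 100, or each library. The adipocyte score as a covariate, and leaving out ZT3_SED_1 and ZT3_RUN_1, were added after the data were seen. Replicate numbers were given in accession order and pair no samples. The genes, lists and rules were chosen with earlier results of these data known. Named genes were the 10, those of each list past the threshold in any of 5 contrasts, or otherwise the 2 of smallest p for exercise at ZT15, and the 3 genes most like each of the 10. For the list of regulators of lipoprotein lipase and that of upstream regulators these were Creb3l3 and Foxo1. Python used numpy 2.4.6 and scipy 1.17.1.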

Additional observations from a re-analysis of the deposited data

Results flagged for a closer look

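Values were flagged where, in a group of 6 libraries, the lowest or highest lay far from the rest by Dixon's criterion on the log2 scale, and 4 of 40 sets of gene and group were flagged, where chance flags about 1 in 20. Lpl in ZT3_RUN_4 was at 3346, below the next ZT3 RUN library at 5951. Dgat1 in ZT3_RUN_4 was at 139.4, below the next at 225.9. Pck1 in ZT15_SED_5 was at 2282, below the next ZT15 SED library at 3303. Gpam in ZT3_SED_4 was at 247.9, below the next ZT3 SED library at 353.4. ZT3_RUN_4 and ZT15_SED_5 also had the highest Cd79a (99.2 and 54.6) and the lowest Adipoq (1101 and 1223) of all libraries, and ZT3_SED_4 had Cd79a at 0.668 and Adipoq at 2341. The part of these markers in the flagged values was not tested.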

How the results depend on the processing

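With exercise at ZT15, the count of the 10 genes past the threshold was 0 by limma, 2 by DESeq2 and 0 under the other 11 settings, and 0 to 2 when each library was left out, the 2 coming without ZT3_RUN_4. Between ZT15 and ZT3 in exercised mice the count was 1, with 0 without the libraries high in Ucp1, 1 under the other 11 settings, and 0 to 1 when each library was left out. For exercise at ZT3, the interaction and ZT15 against ZT3 in sedentary mice it was 0 under all 12 settings and without any single library. The cause of these moves was not tested. With title number blocks as a replicate block, Lpin1 between ZT15 and ZT3 in exercised mice was at 0.82 (adjusted p = 0.0278) and the counts for the 10 genes kept their values. Over all genes the block moved the count in sedentary mice between times to 287, against 191. Deviations of libraries from different groups had a mean r of 0.0883 (lowest -0.624) within a block and of -0.0379 (lowest -0.691) between blocks, so a pairing was not shown.

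Counts over all genes moved more than those of the 10. For exercise at ZT15, 104 became 561 by DESeq2, 199 without ZT3_SED_1 and ZT3_RUN_1, 178 with the adipocyte score, 22 without the libraries high in Cd79a, 0 without those high in Ucp1, and 16 to 293 without 1 library. Between times in exercised mice, 680 became 1590 by DESeq2, 1066 with lymphocyte and muscle scores, 434 without ZT3_SED_1 and ZT3_RUN_1, 426 with quantile normalization, 218 without the libraries high in Ucp1, and 330 to 1004 without 1 library. In sedentary mice, 191 became 548 by DESeq2, 535 with the adipocyte score, 522 with lymphocyte and muscle scores, and 130 to 388 without 1 library. For exercise at ZT3, 0 became 19 without ZT3_SED_1 and ZT3_RUN_1, and for the interaction 0 became 239 by DESeq2. At ZT15, 75% of called genes were higher in RUN, against 93.1% with quantile normalization and 89.7% with median centring, and between times in exercised mice 61% were higher, against 75.9% with median centring.

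Differences of single genes that passed no threshold changed sign in 9 of 120 values for exercise at ZT15 under other settings (Lpl, Cd36, Gpam, Agpat2 and Dgat2), 25 of 120 for exercise at ZT3, 17 of 120 for the interaction, 7 of 120 in sedentary mice and 9 of 120 in exercised mice. Called values changed sign in 0 cases.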
